A study of Mus musculus with 9 samples.

Results

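The amino acid stress programme of the transcription factor ATF4 was described in mouse liver through 32 genes. The list was drawn up from known functions and holds ATF4 and its partners, stress effectors, amino acid enzymes and transporters, and 4 secreted or cell surface proteins. All 32 genes were found by symbol among the 52550 gene identifiers of each deposited table. RNA of whole liver was sequenced in 9 libraries from mice of 320 days, with 3 libraries for each of 3 genotypes. The p53+/- livers (p53-heterozygous) carry 1 disrupted copy of the gene for the tumour suppressor p53. The Tsc1fl/fl;Alb-Cre livers (Tsc1-deleted) carry floxed Tsc1 and Cre recombinase under the albumin promoter, which is active in hepatocytes and in the embryonic precursors that they share with bile duct cells (cholangiocytes). The p53+/-;Tsc1fl/fl;Alb-Cre livers (double mutant) carry both changes. No group without either change was analysed here, so every comparison is between mutants, and the 3 comparisons share libraries with one another. The labels do not say whether the libraries of a group are separate animals, so a p-value here measures spread between libraries, which may be technical.

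ATF4 is a transcription factor whose own translation goes up when the initiation factor eIF2 is phosphorylated, as happens when amino acids run short or unfolded proteins build up in the endoplasmic reticulum. It pairs with C/EBP proteins and turns on genes for amino acid synthesis and uptake, for feedback on translation and, under long stress, for cell death. The product of Tsc1 holds the growth kinase mTORC1 in check, and mTORC1 is itself known to raise ATF4 translation. In liver the programme includes the fasting and stress hormone FGF21.

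ATF4 and C/EBP proteins are known to bind together at a composite element with the core TGATGNAA, where N is any base. This core was looked for on both strands of 300-base RefSeq promoter windows (build GRCm38.p6, from 250 bases before the transcript start to 50 after it), which were found for 28 of the 32 genes. Cth, Eif4ebp1, Slc1a5 and Slc7a5 had no window. The core was present in 8 of the 28 genes (28.6%), against 1219 of the 27025 genes with a window (4.51%). Genes of the list are in part known ATF4 targets, so the share is a description of the list. The stretches below belong to genes whose levels are described in detail, with the core in capitals. Each is written along the strand of its gene, so capitals that end in CATCA are the core read on the opposite strand.
Fgf21, chr7:45615596-45615655, minus strand: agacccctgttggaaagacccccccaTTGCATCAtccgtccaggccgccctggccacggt
Trib3, chr2:152344029-152344056, minus strand: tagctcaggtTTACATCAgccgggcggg
Chac1, chr2:119351023-119351082, plus strand: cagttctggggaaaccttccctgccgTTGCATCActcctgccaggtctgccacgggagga
Asns, chr6:7693210-7693258, minus strand: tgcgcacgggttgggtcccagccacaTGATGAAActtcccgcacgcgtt
Slc1a4, chr11:20332700-20332727, minus strand: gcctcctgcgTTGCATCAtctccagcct
Vldlr, chr19:27216794-27216853, plus strand: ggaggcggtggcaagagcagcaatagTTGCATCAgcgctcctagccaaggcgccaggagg

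Nupr1 and Pycr1 held the core as well. With a T added at its end (TGATGNAAT, contained in the matches above) it was found in Fgf21, Nupr1 and Pycr1, which is 10.7% of the 28 genes against 1.08% of all genes with a window. With a C added (TGATGNAAC, also contained in them) it was found in Asns, Chac1, Slc1a4 and Vldlr, 14.3% against 0.87%. The CRE-type sequence TGACGT, which shares no match with the core, was found in Aldh18a1, Mthfd1l, Ppp1r15a, Psph and Slc1a4, 17.9% against 8.37%. A match is a run of letters and not a measured binding site, and its absence from a window says nothing about the factor.

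**Figure D1:**
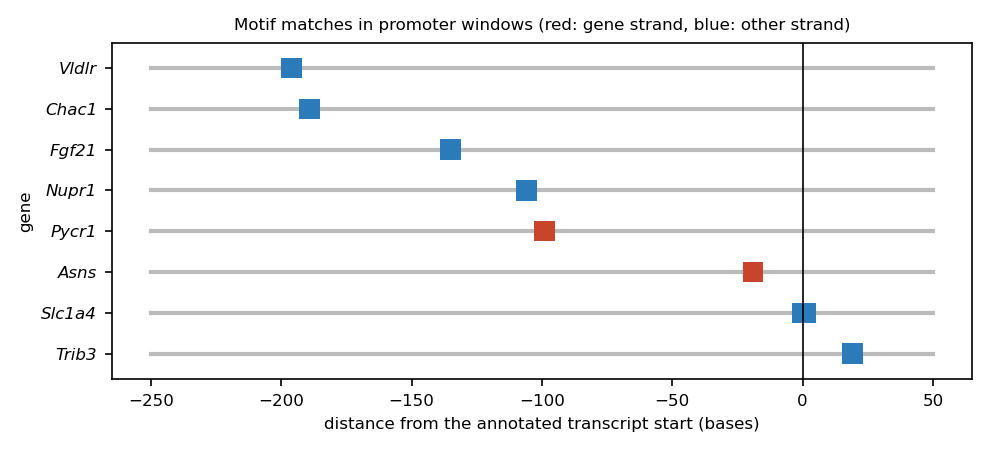
Position of the core TGATGNAA in the promoter windows of the 8 genes that hold it. The x axis is the distance in bases from the annotated transcript start, the grey bar is the window, and the block is the match, red on the gene's strand and blue on the other. The matches run from position -200 in Vldlr to position 22 in Trib3.

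The deposited values are FPKM, which are per length and so allow levels of different genes to be set side by side. Estimated depth was about 10700000 to 18400000 reads. In p53-heterozygous libraries 1 and 2, nuclear protein-coding genes took 7.43% and 6.64% of the reads (about 1050000 and 708000), against 61.8% or more in the other 7 libraries. Each library was therefore rescaled to the same nuclear protein-coding total, by factors of 10.3, 11.1 and 1.33 in the p53-heterozygous libraries and 0.957 to 1.05 elsewhere. Levels below are rescaled FPKM unless they are said to be as deposited. Library 3 of the p53-heterozygous group stood apart in makeup. Its summed level of 8 hepatocyte markers was 545, against 17499 to 39860 in the other 8 libraries, and no marker was at 0. Its 7 stellate and fibroblast markers summed to 844, against 12.3 to 93.2, and its 6 macrophage markers to 1096, against 84.4 to 368. In whole tissue, fewer cells of a type and less RNA per cell cannot be told apart. For comparisons with this group, limma calls and median rescaled differences of the list are given below with and without its library 3. Counts of genes with no overlap between groups are given only with it. The level of Trp53 was 5.45, 5.50 and 20.6 in the p53-heterozygous, 7.05, 8.98 and 15.7 in the Tsc1-deleted and 9.32, 5.83 and 6.90 in the double-mutant libraries. The level of Tsc1 was 1.51, 2.81 and 1.32, then 0.765, 0.965 and 0.912, then 1.02, 1.13 and 1.04. A value over the whole gene and the whole liver does not isolate the floxed part in the cells with Cre, and neither gene passed the test in any comparison.

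Levels spanned about 3 orders of magnitude within the programme. By the median over the 9 libraries, Atf5 (196) and Atf4 (96.0) stood highest, followed by the amino acid enzymes Gpt2 (51.2), Cth (47.8) and Shmt2 (41.4). The lowest were Vldlr (0.479), Pycr1 (0.399) and the arginine transporter Slc7a1 (0.215). The spread between libraries of a group was wide enough that most neighbours in this order overlapped. A level above 0 was listed in every library for 28 of the 32 genes. Fgf21 was listed at 0 in 2 libraries and Phgdh, Psat1 and Stc2 in 1 library each, each time in p53-heterozygous library 1 or 2.

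**Figure D2:**
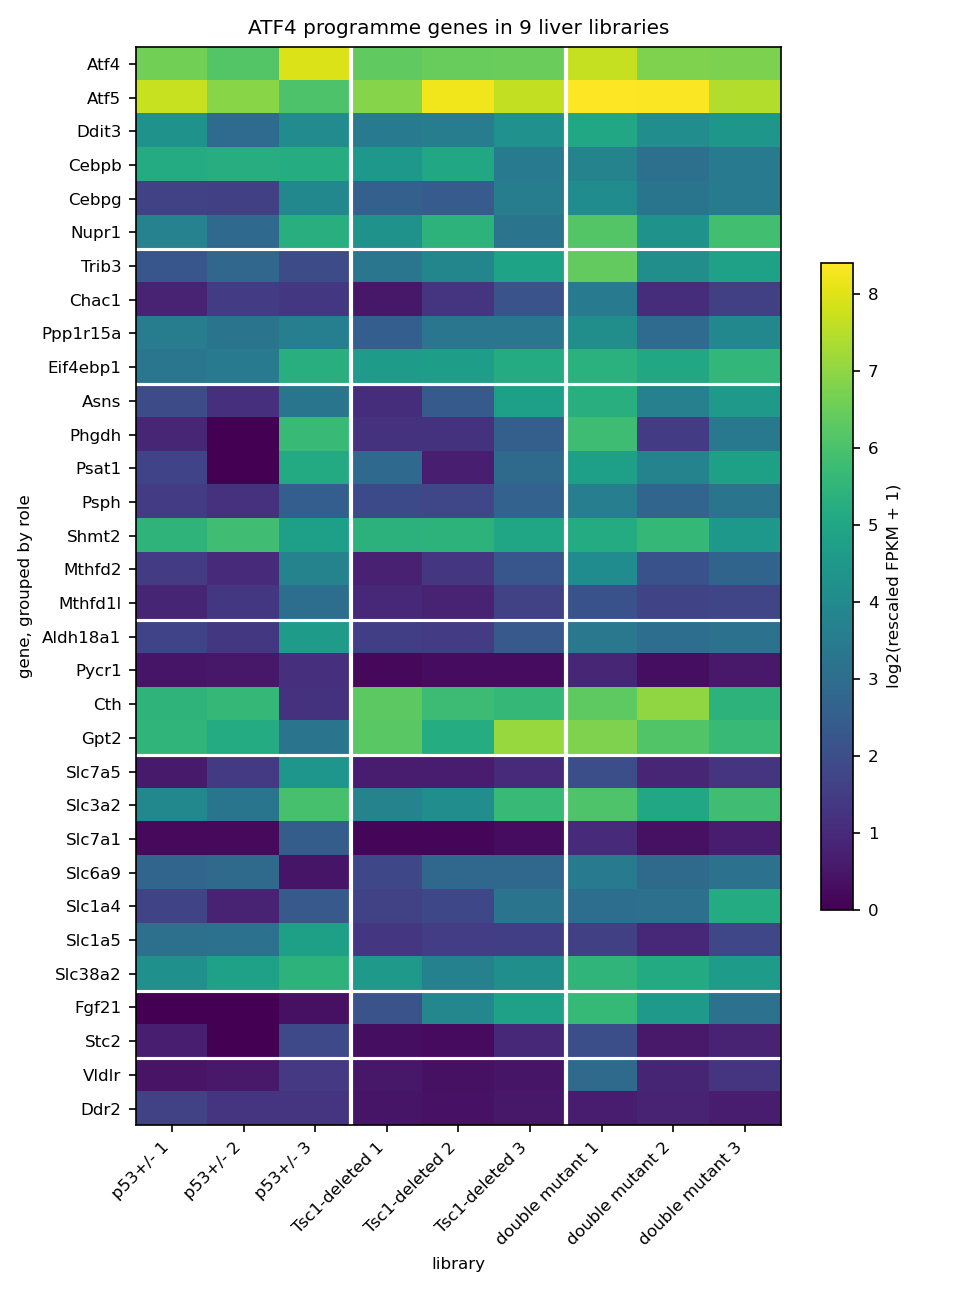
Level of the 32 genes in each of the 9 libraries. Columns are libraries by genotype, rows are genes grouped by role, and colour is log2(rescaled FPKM + 1). Atf5 and Atf4 are the brightest rows, p53-heterozygous library 3 differs from libraries 1 and 2 in many rows, and Fgf21 is dark in all 3 p53-heterozygous libraries.

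Comparisons were made on log2(rescaled FPKM + 1), a scale that understates differences of genes with low levels, with limma over the 12014 genes that had at least 1 deposited FPKM in at least 3 libraries. Of the 32 genes 29 passed this filter. Pycr1, Slc7a1 and Ddr2 did not and are described by level. A gene was called at a two-sided Benjamini-Hochberg adjusted p under 0.05 over the 12014 genes.

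Between the double mutant and the Tsc1-deleted livers, which differ by the p53 allele, the programme stood higher in the double mutant by its median, while no gene of it passed the test. The unadjusted limma p was under 0.05 for 3 of the 29 genes and for 505 of the 12014 genes. Limma called 0 of the 29 genes. It called 0.0166% of the 12014 genes higher and 0.0% lower, and on the deposited values 0.0166% and 0.00832%, again with none of the 29 genes. The SE and p of this comparison also draw on the spread of the p53-heterozygous libraries. With the 6 libraries compared alone, the unadjusted limma p was under 0.05 for 9 of the 29 genes and for 1535 of the 12014 genes. The adjusted p of Psph was then 0.389. The log2 difference was positive for 26 of 29 genes, with a median of 0.74 against 0.27 over the 12014 genes. Markers of cholangiocytes moved with it, with a positive difference for 5 of 5 and a median of 1.37, while 1 of 8 hepatocyte markers was positive (median -0.26). None of these markers was called, and their part in the result was not tested. Another scaling, by median ratios, brought the median of all tested genes to 0.00 and that of the programme to 0.42, with 25 of 29 positive. With the nuclear protein-coding rescaling, the median of the programme was 0.50 without double-mutant library 1, against 0.22 over the 12014 genes. Without Tsc1-deleted library 3 it was 0.98, against 0.42. The 3 double-mutant levels were above the 3 Tsc1-deleted levels with no overlap for 8 of the 29 genes, which was so for 13.2% of the 12014 genes. They were below with no overlap for 0 of 29, against 3.3%. The 8 genes were Atf4, Psat1, Psph, Mthfd1l, Aldh18a1, Slc6a9, Slc38a2 and Vldlr. The 3 genes that were not tested also stood higher with no overlap, and no share over untested genes is given beside them. All 3 had their highest group mean in the p53-heterozygous livers, at 0.694 for Pycr1, 1.61 for Slc7a1 and 1.67 for Ddr2.

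Between the double mutant and the p53-heterozygous livers, Fgf21 and Trib3 rose and Slc1a5 fell. That is 2 of 29 genes called higher, against 2.12% of the 12014 genes, and 1 called lower, against 1.56%. The log2 difference was positive for 25 of 29 genes, with a median of 1.12 against 0.18 over the 12014 genes. The median of the 29 genes was 0.53 without double-mutant library 1, and 0.68 and 0.64 with median-ratio and quantile scaling. Cholangiocyte markers were again positive for 5 of 5, with a median of 1.94. Hepatocyte markers were positive for 6 of 8 (median 1.01), stellate and fibroblast markers for 0 of 6 (median -1.29) and macrophage markers for 2 of 6 (median -0.61). None of these markers was called, and their part was not tested. Groups did not overlap for 8 of the 29 genes. Trib3, Asns, Psph, Gpt2, Slc1a4 and Fgf21 were above (17.4% of the 12014 genes) and Cebpb and Slc1a5 below (9.56%). Ddr2, which was not tested, was also below with no overlap.

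Between the Tsc1-deleted and the p53-heterozygous livers, differences went both ways. Limma called 0 of the 29 genes, and 0.0916% of the 12014 genes were called higher and 0.0916% lower. The unadjusted limma p was under 0.05 for 4 of the 29 genes and for 2015 of the 12014 genes. The log2 difference was positive for 14 of 29 genes, with a median of -0.02 against -0.10 over the 12014 genes. Hepatocyte markers were positive for 8 of 8 (median 1.28) and cholangiocyte markers for 3 of 5 (median 0.79). Stellate and fibroblast markers were positive for 0 of 6 (median -1.19) and macrophage markers for 0 of 6 (median -0.69). None was called, and their part was not tested. Without p53-heterozygous library 3 the hepatocyte median was -0.21 and the stellate and fibroblast median 0.17. Trib3 and Fgf21 were above with no overlap (8.75% of the 12014 genes), and Cebpb and Slc1a5 below (11.9%). Pycr1 and Ddr2, which were not tested, were also below with no overlap.

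**Figure D3:**
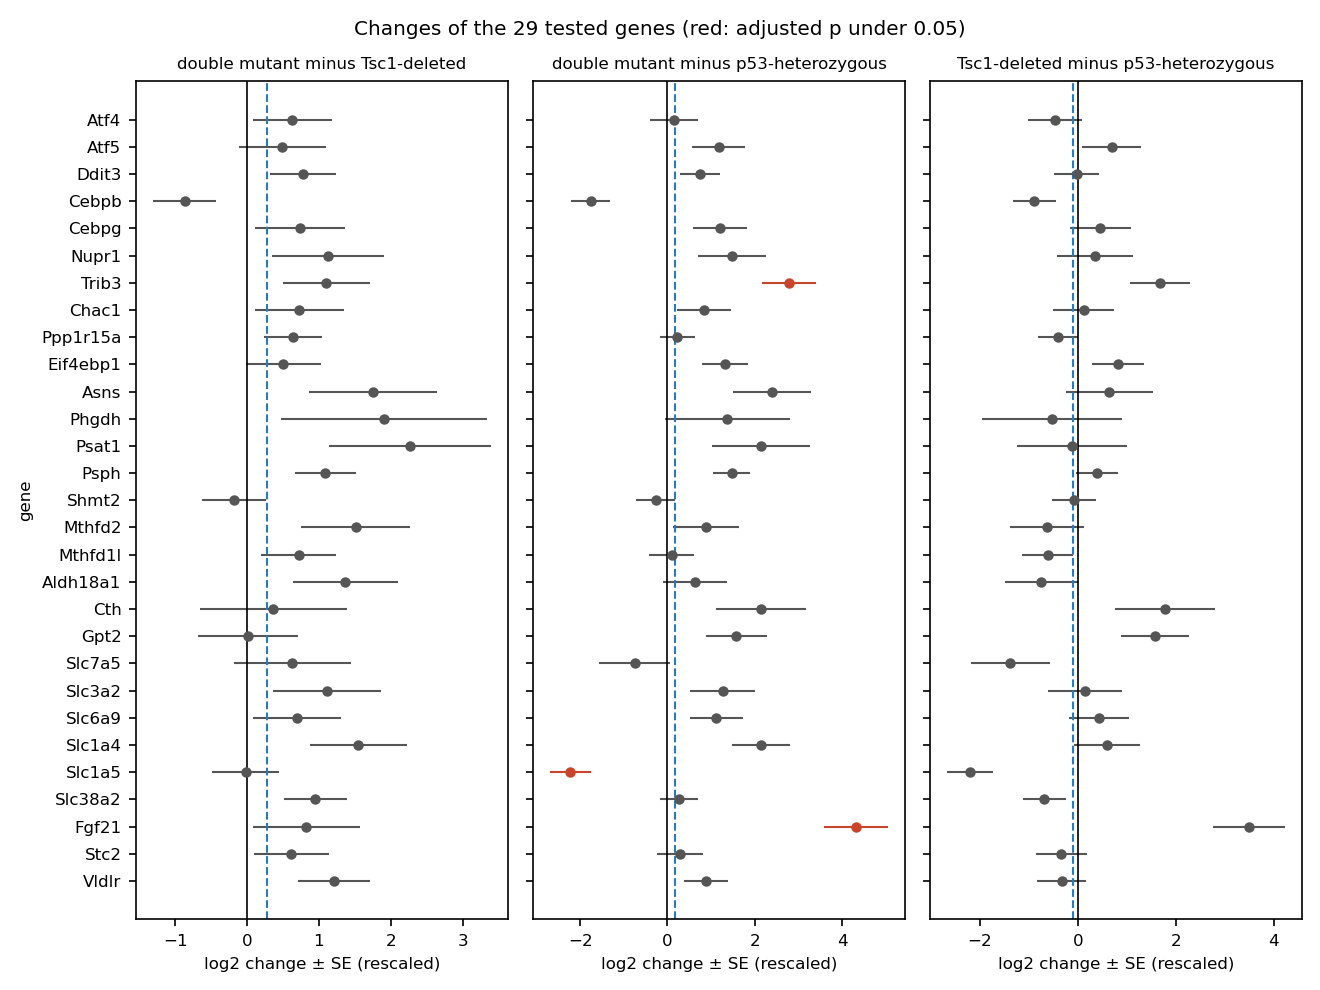
Log2 difference with its SE for the 29 tested genes in the 3 comparisons. The x axis is the difference on the log2(rescaled FPKM + 1) scale, the solid line is 0, the dashed line is the median of the 12014 genes, and red marks an adjusted p under 0.05. In the left panel 26 of 29 points lie right of 0 and none is red, and in the middle panel Fgf21, Trib3 and Slc1a5 are red.

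Among the transcription factors, Atf4 itself was at 96.0, 70.2 and 249 in the p53-heterozygous, 80.0, 87.3 and 89.2 in the Tsc1-deleted and 202, 109 and 105 in the double-mutant libraries. The Tsc1-deleted libraries lay close together and below each double-mutant library, and the p53-heterozygous libraries spanned the range of both. The log2 difference of double mutant minus Tsc1-deleted was 0.63 ± 0.55 (SE; adjusted p = 0.88). Ddit3, which encodes CHOP, the factor linked to cell death under long stress, was at 19.0, 6.72 and 15.4, then 9.76, 10.7 and 18.2, then 31.3, 16.5 and 20.7. Its groups overlapped in every comparison. Cebpb, a C/EBP partner of ATF4 that is also driven by inflammatory signals, was one of the few genes with its lowest group mean in the double mutant. It was at 34.8, 36.6 and 36.2 in the p53-heterozygous, 21.1, 31.9 and 9.72 in the Tsc1-deleted and 12.5, 7.64 and 9.97 in the double-mutant libraries. The p53-heterozygous libraries were above all 6 others, and 1 Tsc1-deleted library lay within the double-mutant range. The log2 difference of double mutant minus p53-heterozygous was -1.76 ± 0.44 (adjusted p = 0.0567), and that of Tsc1-deleted minus p53-heterozygous was -0.89 ± 0.44 (adjusted p = 0.343), and -0.45 without Tsc1-deleted library 3. On the deposited values both had the other sign, at 0.44 (adjusted p = 0.655) and 1.29 (adjusted p = 0.268). Atf5, a factor under the same translational control as ATF4, had group means of 130 ± 71.6, 203 ± 91.6 and 278 ± 92.1 (SD, n = 3) in the p53-heterozygous, Tsc1-deleted and double-mutant livers. Cebpg, another dimer partner of ATF4, had means of 6.12 ± 7.05, 6.64 ± 3.47 and 11.4 ± 3.89, and the stress-induced chromatin protein gene Nupr1 19.0 ± 17.0, 23.0 ± 17.3 and 48.7 ± 26.9. The groups of these 3 genes overlapped, and none was called. Reads of Atf5, Ddit3, Cebpb and Cebpg could not be told from those of overlapping genes on the opposite strand, since no source used here says that strand was kept, and Cebpg also shares its strand with overlapping gene models.

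Of the feedback and stress effectors, Trib3, a pseudokinase that is induced by ATF4 and dampens it, was at 3.73, 5.91 and 2.90 in the p53-heterozygous, 8.84, 13.5 and 28.4 in the Tsc1-deleted and 82.5, 16.7 and 27.3 in the double-mutant libraries. Every p53-heterozygous library was below the other 6, and the Tsc1-deleted and double-mutant groups overlapped. At the estimated depth, p53-heterozygous libraries 1 and 2 held about 10.95 and 12.1 reads of Trib3. Trib3 rose in the double mutant against p53-heterozygous livers by 2.79 ± 0.61 on the log2 scale (adjusted p = 0.0422). The difference of Tsc1-deleted minus p53-heterozygous was 1.68 ± 0.61 (adjusted p = 0.208). The call was lost on leaving out p53-heterozygous library 1 (adjusted p = 0.0948) or 2 (0.0757), Tsc1-deleted library 1 (0.0690) or 2 (0.0726), or double-mutant library 1 (0.128), 2 (0.0888) or 3 (0.102), while the log2 difference stayed at 2.15 to 3.27 in each of the 9 fits with 1 library left out. Chac1, which encodes an enzyme that degrades glutathione, was at 0.750, 1.76 and 1.59, then 0.471, 1.45 and 3.44, then 10.3, 1.13 and 2.01. Double-mutant library 1 was far above the others, and the groups overlapped in every comparison. Ppp1r15a encodes GADD34, which helps to reverse the phosphorylation of eIF2, and it was at 8.30 to 11.3 in the p53-heterozygous, 4.74 to 8.95 in the Tsc1-deleted and 6.73 to 16.8 in the double-mutant libraries. Eif4ebp1 encodes a translation repressor that mTORC1 phosphorylates, with group means of 18.7 ± 16.1, 27.7 ± 6.14 and 39.6 ± 7.46 (SD, n = 3). Its p53-heterozygous libraries 1 and 2, at 8.75 and 10.1, were the lowest of the 9, and library 3 reached 37.3. Neither gene was called, and Ppp1r15a overlaps a gene on the opposite strand.

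The enzymes of asparagine, serine and mitochondrial one-carbon synthesis had, of the roles, the largest median log2 difference of double mutant minus Tsc1-deleted, 1.52 over 7 genes, of which 6 were positive. Asns, asparagine synthetase, was at 2.78, 1.17 and 8.71 in the p53-heterozygous, 1.16, 4.25 and 25.7 in the Tsc1-deleted and 38.5, 11.7 and 22.0 in the double-mutant libraries. The double-mutant libraries were above each p53-heterozygous one, and Tsc1-deleted library 3 lay within their range. Psat1, the transaminase of serine synthesis, was at 2.25, 0 and 34.0, then 6.29, 0.627 and 6.50, then 26.1, 12.5 and 26.2. The Tsc1-deleted libraries were below each double-mutant library, and p53-heterozygous library 3 was the highest of the 9. The log2 difference of double mutant minus Tsc1-deleted was 2.27 ± 1.13 (adjusted p = 0.88). Psph, the phosphatase of the last step to serine, was at 1.78, 1.29 and 4.64, then 2.72, 2.43 and 5.20, then 11.1, 5.71 and 8.37. Its 3 double-mutant libraries were the highest of the 9. The log2 difference was 1.09 ± 0.43 against Tsc1-deleted (unadjusted p = 0.0298, the lowest of the 29 genes in this comparison, adjusted p = 0.88) and 1.47 ± 0.43 against p53-heterozygous livers (adjusted p = 0.0848). Phgdh, the first enzyme of serine synthesis, was the least even of the group. It reached 49.9 in p53-heterozygous library 3 and 54.3 in double-mutant library 1 and lay between 0 and 9.63 in the other 7 libraries. The mitochondrial folate enzyme gene Mthfd2 had group means of 5.09 ± 6.43, 2.00 ± 1.59 and 8.26 ± 6.74, and Mthfd1l 3.23 ± 3.51, 1.29 ± 0.779 and 2.67 ± 0.594. Shmt2, the mitochondrial serine hydroxymethyltransferase, was at 41.6 ± 14.8, 37.9 ± 7.20 and 34.5 ± 13.0, and its log2 difference was -0.18 in double mutant minus Tsc1-deleted livers. None of the 7 enzymes was called. Psat1, Psph and Shmt2 overlap a gene on the opposite strand, and Mthfd2 and Mthfd1l one on their own.

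The second enzyme group makes proline, cysteine and alanine. Aldh18a1, the first enzyme of proline synthesis, was at 2.19, 1.58 and 23.6, then 1.98, 1.81 and 4.13, then 9.39, 7.19 and 7.73. The double-mutant libraries were above each Tsc1-deleted one, and p53-heterozygous library 3 was above them all. Pycr1, which encodes a reductase of the last step to proline, was at 0.399, 0.446 and 1.24 in the p53-heterozygous libraries. It was between 0.130 and 0.220 in the Tsc1-deleted and between 0.254 and 0.887 in the double-mutant libraries. The p53-heterozygous libraries were above each Tsc1-deleted one and overlapped the double mutant. Libraries 1 and 2 of the p53-heterozygous group held about 2.17 and 1.68 reads of Pycr1. Gpt2, the mitochondrial alanine aminotransferase, was at 44.1, 34.6 and 8.33, then 75.6, 36.0 and 137, then 108, 68.6 and 51.2. The double-mutant libraries were above each p53-heterozygous one, and Tsc1-deleted library 2 lay between p53-heterozygous libraries 1 and 2. The log2 difference of Tsc1-deleted minus p53-heterozygous was 1.57 ± 0.70 (adjusted p = 0.293), and 0.87 without p53-heterozygous library 3. Cth, cystathionine gamma-lyase, which releases cysteine, was at 43.1 and 47.8 in p53-heterozygous libraries 1 and 2 and at 1.37 in library 3, against 41.8 to 127 in the other 6. Gpt2 and Cth were thus low in the library where hepatocyte markers were low, and the part of that makeup in their differences was not tested. Aldh18a1 and Cth share their strand with an overlapping gene model.

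Among the 7 transporters, Slc1a5, a carrier of glutamine and other neutral amino acids known as ASCT2, had lower rescaled levels in the 6 libraries with Tsc1 deleted. It was at 7.67, 7.76 and 26.7 in the p53-heterozygous, 1.54, 1.89 and 1.92 in the Tsc1-deleted and 2.04, 0.978 and 2.42 in the double-mutant libraries. The 3 p53-heterozygous libraries were above the other 6 with no overlap. Slc1a5 fell by 2.22 ± 0.46 on the log2 scale in the double mutant against p53-heterozygous livers (adjusted p = 0.0376). The difference of Tsc1-deleted minus p53-heterozygous was -2.21 ± 0.46 (adjusted p = 0.0695). Without p53-heterozygous library 3 the differences were -1.67 (adjusted p = 0.00621) and -1.65 (adjusted p = 0.0124), and leaving out any of the other 8 libraries lost the first call (adjusted p = 0.0502 to 0.153). On the deposited values the levels were 0.746, 0.698 and 20.0, against 1.54 to 2.01 and 0.985 to 2.42, so that libraries 1 and 2 fell below the Tsc1-deleted ones, and the log2 difference of double mutant minus p53-heterozygous was -0.52 (adjusted p = 0.55). The direction of Slc1a5 in those 2 libraries therefore rests on the rescaling by factors of 10.3 and 11.1.

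Slc1a4 (ASCT1), a carrier of serine and alanine from the same family, was at 2.32, 0.728 and 4.12, then 2.10, 2.52 and 8.31, then 7.20, 7.67 and 34.8. The double-mutant libraries were above each p53-heterozygous one, Tsc1-deleted library 3 lay among them, and double-mutant library 3 was the highest. The log2 difference of double mutant minus Tsc1-deleted was 1.55 ± 0.67 (adjusted p = 0.88), and 0.85 without double-mutant library 3. Slc38a2 (SNAT2), which takes up small neutral amino acids and is induced when they are scarce, was at 17.8, 27.1 and 42.4, then 22.0, 12.1 and 17.3, then 44.2, 34.3 and 24.0. Each double-mutant library was above each Tsc1-deleted one, by a log2 difference of 0.95 ± 0.44 (adjusted p = 0.88), and the p53-heterozygous libraries overlapped both groups. Slc7a5 (LAT1), the light chain of a leucine exchanger, reached 20.4 in p53-heterozygous library 3 and lay between 0.515 and 3.02 elsewhere. Its partner Slc3a2, the heavy chain, was 8.52 or more in each library, with means of 28.1 ± 29.1, 26.7 ± 21.3 and 51.5 ± 18.7 (SD, n = 3). Slc6a9, a glycine transporter, had means of 4.20 ± 3.32, 4.84 ± 1.98 and 8.11 ± 1.79. Slc7a5 and Slc6a9 overlap genes on the opposite strand. Slc7a1, the cationic amino acid transporter, reached 4.54 in p53-heterozygous library 3 and lay between 0.0730 and 1.02 elsewhere.

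Of the secreted proteins, Fgf21 had the largest difference of the 29 tested genes in both comparisons with p53-heterozygous livers. It was listed at 0, 0 and 0.289 in the p53-heterozygous libraries and was at 3.40, 13.7 and 27.3 in the Tsc1-deleted and 48.9, 22.5 and 7.73 in the double-mutant libraries. Each of the 6 libraries with Tsc1 deleted was above the 3 without, and the 6 overlapped between their groups. Fgf21 rose in the double mutant against p53-heterozygous livers by 4.32 ± 0.74 on the log2 scale (adjusted p = 0.0251). The difference of Tsc1-deleted minus p53-heterozygous was 3.49 ± 0.74 (adjusted p = 0.0697), and that of double mutant minus Tsc1-deleted was 0.83 ± 0.74 (adjusted p = 0.883). The call was lost on leaving out p53-heterozygous library 1 (adjusted p = 0.0593) or 2 (0.0677) or double-mutant library 1 (0.0901) or 2 (0.0999), at log2 differences of 3.72 to 4.26. The fitted size depends on the pseudocount and was 7.03 with 0.1 added to each level and 2.38 with 5 added. Depth limits how low the p53-heterozygous level can be placed. A count of 3 reads of Fgf21 would be worth about 2.29 and 3.28 rescaled FPKM in libraries 1 and 2, below the 3.40 of the lowest library with Tsc1 deleted, and library 3 held about 2.76 reads. These limits cover counting error only and rest on an estimated depth. Library 3, with low hepatocyte markers, was the deepest of the 3 in nuclear reads. Fgf21 is also known as a target of the fatty acid receptor PPAR alpha. Of 12 PPAR alpha targets, 9 had a positive log2 difference in Tsc1-deleted minus p53-heterozygous livers and 10 in double mutant minus p53-heterozygous, with medians of 0.97 and 0.89, and none was called. Without p53-heterozygous library 3, 7 and 5 of the 12 were positive, with medians of 0.14 and -0.11, again with none called. Stc2, a secreted glycoprotein induced by stress, was at 1.08 ± 1.37, 0.463 ± 0.432 and 1.43 ± 1.42.

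Of the cell surface receptors, Vldlr, which takes up lipoproteins and is a known ATF4 target in liver stress, was at 0.351, 0.479 and 1.62, then 0.442, 0.306 and 0.406, then 6.56, 0.829 and 1.39. Each double-mutant library was above each Tsc1-deleted one, with library 1 far above the others. The log2 difference of double mutant minus Tsc1-deleted was 1.21 ± 0.50 (adjusted p = 0.88), and 0.59 without double-mutant library 1. Ddr2, a collagen receptor, was at 1.67 ± 0.419, 0.393 ± 0.0567 and 0.645 ± 0.103. Its groups did not overlap in any comparison. The filter uses deposited values, which were 0.209, 0.127 and 1.08 in the p53-heterozygous libraries, and Ddr2 did not pass it. Rescaled, the same libraries were at 2.15, 1.41 and 1.45. Ddr2 overlaps a gene on the opposite strand.

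**Figure D4:**
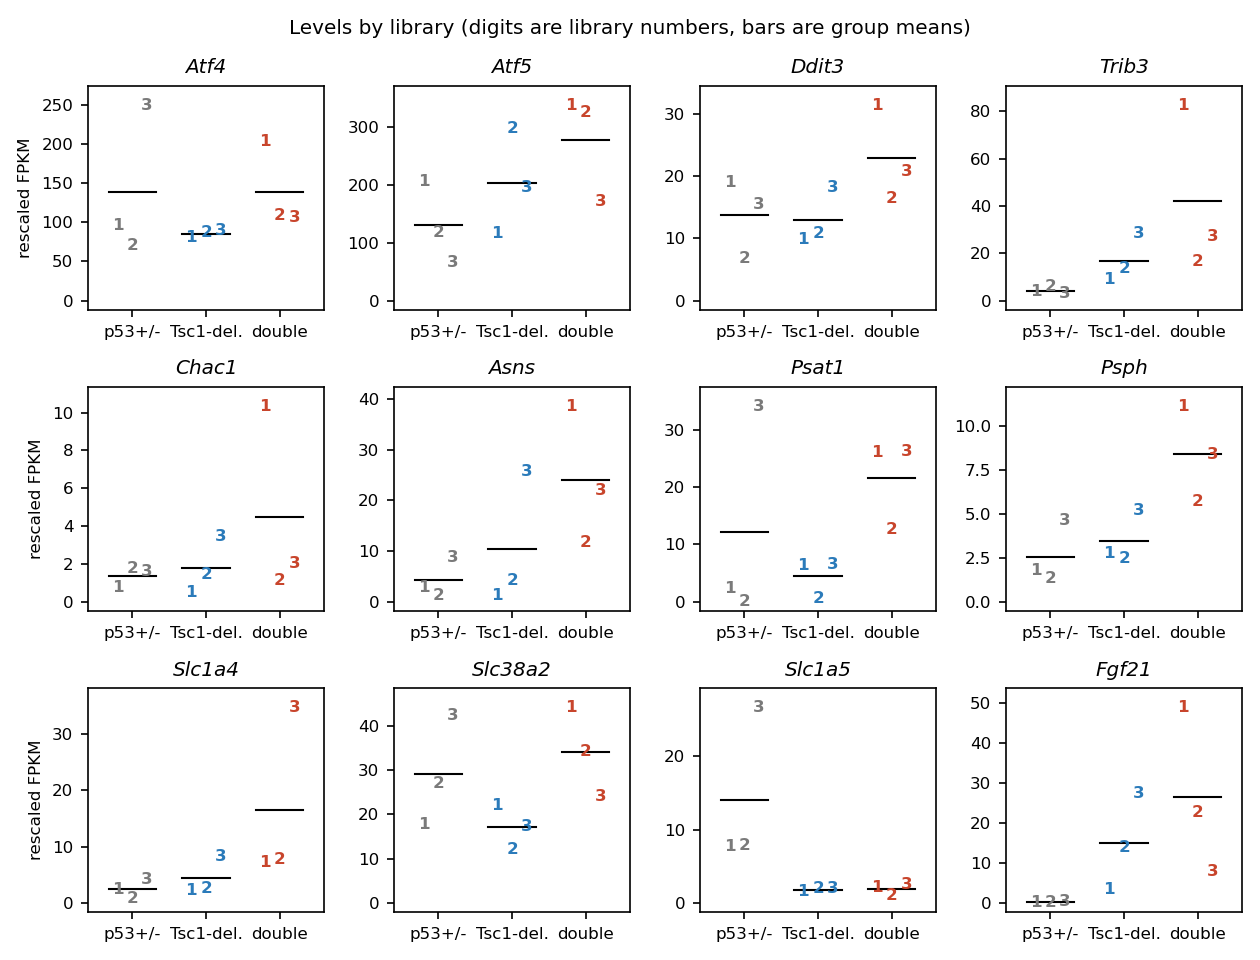
Rescaled FPKM of 12 genes in each library. Digits are library numbers, colours are genotypes, and bars are group means. Fgf21 and Trib3 are lowest in the 3 p53-heterozygous libraries, Slc1a5 is highest in them, and Psph is highest in the 3 double-mutant libraries. Library 3 of the p53-heterozygous group stands above libraries 1 and 2 for Atf4, Psat1 and Slc1a5.

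The number of genes called against the p53-heterozygous group depended on the scale. On the deposited values 14 of the 29 genes were higher in the double mutant and 0 lower, against 31.9% and 0.449% of the 12014 genes, and the median log2 difference of all tested genes was itself 1.38. The median of the 29 genes was 2.36. For Tsc1-deleted minus p53-heterozygous livers 6 genes were higher and 0 lower, against 12.1% and 0.0916%, with a median of 1.42 for the 29 genes and 1.07 for all tested genes. Fgf21, Trib3, Cth, Gpt2, Atf5 and Slc6a9 were higher in both. Shares of 14 and 6 in 29 are to be read beside a shift that most tested genes share on that scale.

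**Figure D5:**
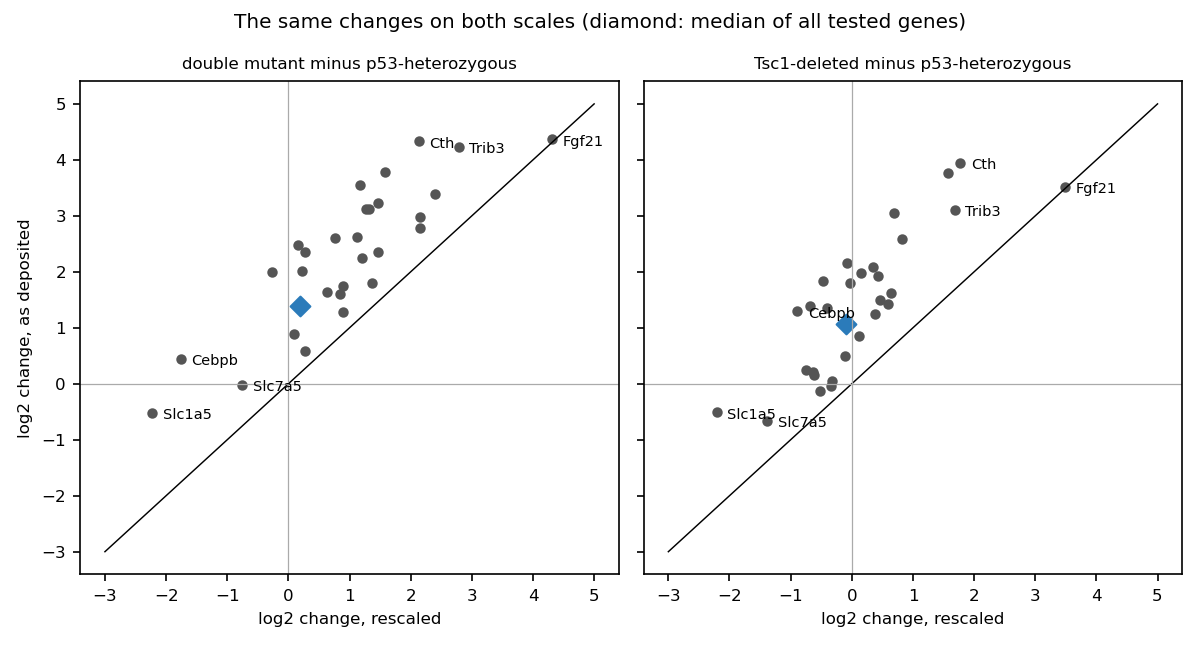
Log2 difference of the 29 genes on the rescaled (x axis) and deposited (y axis) scales for the comparisons with p53-heterozygous livers. The diagonal marks equal values and the diamond is the median of the 12014 genes. Points lie mostly above the diagonal, as does the diamond at 0.18 and 1.38 in the left panel, while Fgf21 lies on it.

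The calls also depended on p53-heterozygous library 3. Without it, 10 genes were higher and 2 lower in the double mutant than in p53-heterozygous livers, against 18.4% and 5.97% of the 12014 genes. The 10 were Fgf21, Trib3, Psat1, Psph, Asns, Aldh18a1, Slc3a2, Slc1a4, Eif4ebp1 and Cebpg, and the 2 were Slc1a5 and Cebpb. The median log2 difference of the 29 genes was then 0.93, with 26 positive, against 0.42 over the 12014 genes. In the same fit 5 of 5 cholangiocyte markers were called higher (median 3.00). Called lower were 3 of 8 hepatocyte markers (median -0.75) and 2 of 6 macrophage markers (median 0.21). The part of these markers in the 12 calls was not tested. In Tsc1-deleted minus p53-heterozygous livers 2 genes were then higher (Fgf21 and Eif4ebp1) and 1 lower (Slc1a5), against 4.4% and 3.95%, and 21 of 29 were positive, with a median of 0.27 against 0.13. With library 3 as the lone p53-heterozygous library, and its spread assumed to be that of the other groups, 6 genes were higher and 3 lower in the double mutant, against 9.67% and 17.8%, and the median was 0.07 with 16 of 29 positive, against -0.30 over the 12014 genes. Fgf21, Trib3 and Slc1a5 were among these 9 genes. In Tsc1-deleted minus p53-heterozygous livers 3 were higher and 6 lower, against 9.36% and 26.0%, with 7 of 29 positive and a median of -0.91 against -0.59. Aldh18a1 changed sign between these fits, from a log2 difference of 1.66 (adjusted p = 0.0092) without library 3 to -1.44 (adjusted p = 0.0382) with library 3 alone. Fgf21 and Trib3 were higher, and Slc1a5 lower, in the double mutant in both.

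Within the double mutant the genes of the list peaked in 1 library more often than the tested genes at large. Shares of the list are over all 32 genes, 3 of which did not pass the filter that defines the 12014 genes. Double-mutant library 1 held the highest level of its group for 25 of the 32 genes (78.1%), against 45.5% of the 12014 genes. Double-mutant library 2 held the lowest for 23 of the 32 (45.3% of the 12014 genes). Tsc1-deleted library 3 held the highest of its group for 25 genes (78.1% against 71.5%) and p53-heterozygous library 3 for 22 (68.8% against 65.0%), close to the share over all tested genes. The summed level of 5 cholangiocyte markers was also highest in those 3 libraries, at 2545 in p53-heterozygous library 3, against 149 and 108, at 2602 in Tsc1-deleted library 3, against 529 and 535, and at 3515 in double-mutant library 1, against 980 and 1530. No cholangiocyte marker was at 0 in any library, and the part of these cells or transcripts in the levels of the list was not tested.

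Other genes of the pathway were read from lists of known function, on the rescaled values. Over the 12014 genes the median log2 difference was 0.27 in double mutant minus Tsc1-deleted livers, with 0.0166% called higher. In double mutant minus p53-heterozygous livers it was 0.18, with 2.12% called higher. The 13 aminoacyl-tRNA synthetases, which charge tRNAs and are known ATF4 targets, had a positive log2 difference in double mutant minus Tsc1-deleted livers for 13 of 13 genes, with a median of 0.66 and none called. In double mutant minus p53-heterozygous livers 11 of 13 were positive, with a median of 0.84 and none called. Of 14 tested further ATF4 targets, 13 were positive in each of these comparisons, with medians of 0.74 and 1.18. Sqstm1, the autophagy receptor p62, was the 1 of them called, with means of 76.5 ± 13.3 in p53-heterozygous and 350.3 ± 16.5 in double-mutant livers and a log2 difference of 2.19 ± 0.50 (adjusted p = 0.0447, and above 0.05 on leaving out any library other than library 3 of the p53-heterozygous or Tsc1-deleted group, at 0.0805 to 0.158). The list of kinases and subunits that act on eIF2 upstream of ATF4 also holds Impact. The 12 genes of this list had medians of 0.27 and 0.20, close to those of all tested genes, and none was called. Of 10 tested further serine and one-carbon genes, 6 were positive against Tsc1-deleted and 7 against p53-heterozygous livers. Gldc, the glycine decarboxylase that feeds one-carbon units from glycine, was called in the latter comparison, at 84.4 ± 27.5 against 5.95 ± 1.97 (log2 difference 3.62 ± 0.51, adjusted p = 0.0160, and 0.0575 or 0.0707 without double-mutant library 1 or 2). Chaperones and sensors of the endoplasmic reticulum were positive for 15 of 15 and 13 of 15 genes, with medians of 0.42 and 0.91. Atf6, a sensor of unfolded proteins, was the 1 called, in double mutant minus p53-heterozygous livers, at 10.9 ± 1.22 against 3.70 ± 1.25 (log2 difference 1.37 ± 0.32, adjusted p = 0.0488). Its call was lost on leaving out the same 7 libraries as for Sqstm1, at 0.0822 to 0.183. With median-ratio rescaling the medians of double mutant minus Tsc1-deleted were 0.32 for the synthetases (11 of 13 positive), 0.40 for the further ATF4 targets (10 of 14) and 0.06 for the endoplasmic reticulum list (11 of 15), and they turned negative for the eIF2 list (-0.02) and the further serine and one-carbon genes (-0.21). In Tsc1-deleted minus p53-heterozygous livers no gene of these lists was called.

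These list counts also depended on p53-heterozygous library 3. Without it, 7 of the 13 synthetases were called higher in double mutant minus p53-heterozygous livers, with a median of 1.15, in a fit that called 18.4% of the 12014 genes higher. Gars (2.41 ± 0.62, adjusted p = 0.0241) and Nars (1.94 ± 0.45, adjusted p = 0.0159), which charge the tRNAs of glycine and asparagine, had the largest log2 differences of the 7. Of the further ATF4 targets 6 of 14 were called higher (median 1.44), with the largest differences in the cell cycle inhibitor gene Cdkn1a (3.19 ± 0.75, adjusted p = 0.0188) and in Ddit4 (2.45 ± 0.66, adjusted p = 0.0289), whose product restrains mTORC1. Cdkn1a is also a target of p53. On the endoplasmic reticulum list 5 of 15 genes were called higher (median 0.56), namely Atf6, Edem1, Xbp1, Ern1 and Dnajc3. On the eIF2 list 3 of 12 were called higher (median 0.60), namely Impact, Eif2b5 and Eif2ak3, the last of which encodes the kinase PERK. Of the further serine and one-carbon genes Gldc was called (median of the 10 genes 0.30). None of these lists held a gene called lower. In Tsc1-deleted minus p53-heterozygous livers the same omission gave 3 calls, all higher, in Gldc (adjusted p = 0.0124), Impact (adjusted p = 0.0216) and Sqstm1 (adjusted p = 0.0296), where 4.4% of the 12014 genes were called higher.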

How the data were processed

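Each deposited table gives 1 FPKM value per gene, made by the authors. Neither header nor label names the unit, which was read from the values. The submitters' processing notes name cutadapt, STAR, StringTie and the build mm9, with versions not given in the sources used here. Of 52550 Ensembl identifiers 52403 matched GENCODE mouse release M21, which was used for symbols, lengths, biotypes and overlaps, and no coordinate comes from the tables. Depth was estimated from the FPKM step of 1 read. Low values were not whole multiples of that step, so no count test was run.

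Each library was multiplied so that its FPKM total over nuclear protein-coding genes equalled the median of the 9 totals. Genes with at least 1 deposited FPKM in at least 3 of 9 libraries were tested on log2(value + 1) with limma 3.58.1 in R 4.3.3 (trend and robust moderation, all 9 libraries in 1 fit), with Benjamini-Hochberg adjustment over the 12014 tested genes. The test was run on simulated normal values with the same spread per gene in all 9 libraries. That simulation does not cover the uneven depth and makeup of the p53-heterozygous libraries. Python 3.11.15, pandas 2.3.3 and matplotlib 3.10.9 were used for tables and figures.

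The genes and lists were chosen with earlier results of these data known. Statistics are given, per comparison, for genes that passed and otherwise for those with the lowest p up to 5. Values in each library are given for these and for Atf4, Ddit3, Trib3, Asns, Psat1, Chac1 and Fgf21. Aldh18a1, Phgdh, Cth and others with values in single libraries were added after their values were seen. From the other lists up to 2 called genes with the largest difference are named. Without p53-heterozygous library 3, all called genes of a list are named where they were 5 or fewer, a choice made after their values were seen. The sources used here do not tie libraries to lanes. The RNA is labelled polyA, while the extraction text describes removal of ribosomal RNA. Promoter windows are RefSeq's. The alternatives are listed in the closing section.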

Additional observations from a re-analysis of the deposited data

How the results depend on the processing

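In double mutant minus Tsc1-deleted livers limma called 0 of the 29 genes under each alternative. In double mutant minus p53-heterozygous livers 3 genes were called, and the count was 14 as deposited (all higher, against 31.9% of the 12014 genes), 5 with quantile normalization (3 higher and 2 lower, against 3.31% and 3.85%), 9 without p53-heterozygous libraries 1 and 2 (6 higher and 3 lower, against 9.67% and 17.8%), and 0 with a pseudocount of 5, with no filter or with the 6 libraries compared alone. Leaving out 1 library at a time gave 0 to 12 genes. The count was 12 without p53-heterozygous library 3 (10 higher and 2 lower, against 18.4% and 5.97%), 0 without library 1 or 2 of that group or of the double mutant, 1 without double-mutant library 3 or Tsc1-deleted library 1 or 2, and 3 without Tsc1-deleted library 3. In Tsc1-deleted minus p53-heterozygous livers no gene was called, and the count was 6 as deposited (all higher, against 12.1%), 1 lower with median-ratio rescaling (1.09%) or quantile normalization (0.533%), 1 higher with a pseudocount of 0.1 (0.175%), 9 without p53-heterozygous libraries 1 and 2 (3 higher and 6 lower, against 9.36% and 26.0%), and 0 to 3 with 1 library left out (3 without p53-heterozygous library 3).

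A pair of alternatives was added after seeing the data. With deposited values and no p53-heterozygous library 3, 29 and 23 of the 29 genes were called in the 2 comparisons with that group, where 93.3% and 89.4% of the 12014 genes were higher. With deposited values and the 6 libraries compared alone, 7 and 0 were called, where 9.18% and 0.166% were higher. Slc1a5 then reversed in the first of these fits, to 0.68 and 0.69. Cebpb reversed to 0.44 and 1.29 as deposited and with the 6 libraries alone as deposited, and to 1.34 and 2.19 without p53-heterozygous library 3 as deposited. Of 327 values of named genes under the alternatives, 266 kept their direction and side of the threshold, 31 lost a call, 22 gained one and 8 reversed. Most of these values had no call to lose. The called genes were Fgf21, Trib3 and Slc1a5, in double mutant minus p53-heterozygous livers. Their adjusted p was under 0.05 in 15 of 22, 11 of 22 and 8 of 21 alternatives, and Slc1a5 reversed in 1 of its 21.

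The replicate block, which takes the library number as a factor, gave 0, 3 and 0 genes, with Slc1a4 (adjusted p = 0.0314) in place of Trib3 (adjusted p = 0.0545). Same-numbered libraries did not deviate together throughout, with correlations of -0.204 to 0.348, so they share a number and are not treated as pairs.

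Depth limits the p53-heterozygous values. At about 1050000 and 708000 nuclear reads, a gene such as Asns rests on about 10.5 and 3.08 reads in libraries 1 and 2. Psph rests on about 10.6 and 5.37 reads there, and Slc1a4 on about 12.6 and 2.74.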
